A study of Homo sapiens with 12 samples.

Results

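The numbered long intergenic noncoding RNAs are transcripts that carry a placeholder name, LINC followed by a number, and mostly no assigned function. They were taken here as the symbols LINC plus digits, with no suffix, whose mean over the 12 RNA-seq libraries was at least 10 expected counts. Of 26475 gene symbols counted, 876 had such a name, and 141 of them passed this level. They were thus chosen by their name and their mean count over all libraries, so their levels are given as a description without a test. Of the others, 469 had 0 counts in every library and 266 had a mean above 0 but below 10. The members closest to the limit were LINC01571 and LINC01134, with mean counts of 10.6 and 10.7, and the closest symbols below it were LINC01431 and LINC01444, both with 9.92.

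Long noncoding RNAs are transcribed by RNA polymerase II, capped and often spliced and polyadenylated. Many are held in the nucleus, where some act on the gene next to them, on chromatin or on nuclear bodies, while others are exported and bind proteins or other RNAs in the cytoplasm. They are usually expressed at lower levels and in fewer cell types than mRNAs. Some loci first listed as noncoding were later found to encode a small protein.

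All libraries came from MIAPaCa2, an established human pancreatic ductal adenocarcinoma line that depends on glycolysis. Oxamate is a pyruvate analog that inhibits lactate dehydrogenase A. Parental cells and oxamate-resistant cells were each sequenced without the drug and after oxamate, with 3 libraries in each of the 4 groups. The resistant cells were a population grown from the parental line under 10 mM oxamate for 4 weeks, so 1 selected population stands for the resistant state. The labels call the drug-free groups untreated and the study calls them vehicle-treated, and they are named vehicle here. The dose and time of the oxamate treatment before RNA-seq were not given in the sources used here. Nothing states that the 3 replicates of a group were separate cultures, so the p-values measure the spread between these libraries, which may be technical.

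The libraries held 46698729 to 114222169 expected counts, and every parental library was deeper than every resistant one. The defining genes of the line were in place: KRT8, a keratin, ranged from 671 to 1600 CPM (counts scaled to the library total), and CDKN2A and MTAP, both deleted in MIAPaCa2, were at 0 in every library. Of the markers of other cells, CD3E, PRSS1 and INS were at 0, and PTPRC, CPA1, DCN and PECAM1 did not pass 11 counts in any library. COL1A1 ranged from 0.901 to 2.03 CPM. LDHA, the target of the drug, ranged from 944 to 1700 CPM, whereas LDHB had at most 1 count. A set of 4 RNAs known to stay in the nucleus (MALAT1 of nuclear speckles, NEAT1 of paraspeckles, KCNQ1OT1 and MIAT) summed to 321 to 357 CPM in the parental vehicle libraries. The same sum was 557, 544 and 1187 CPM after oxamate in parental cells, 583, 534 and 1112 CPM in resistant vehicle cells, and 1238, 1080 and 1407 CPM in resistant oxamate cells. Replicate 3 of parental oxamate and replicate 3 of resistant vehicle therefore stood apart from the other libraries of their groups in nuclear RNA, and the counts below are also given without them. They are called the libraries rich in nuclear RNA below, although the resistant oxamate libraries held 1080 to 1407 CPM.

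In RefSeq 129 members were listed as lncRNA, 11 as protein coding and 1 as a pseudogene. For 41 members RefSeq used another symbol, among them NORAD for LINC00657, CHASERR for LINC01578, CYTOR for LINC00152, PRECSIT for LINC00346 and ZNF407-AS1 for LINC00909. The longest GENCODE 29 transcript of the 130 members matched there had a median of 2297.5 bases and 3 exons, and 24 members had a single exon. The span of 28 members overlapped a protein-coding gene. The library kit did not mark strand, so reads from such a member and from its overlapping partner cannot be told apart.

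A promoter window, from 250 bases before to 50 bases after the start, was found in RefSeq (GRCh38.p14) for 113 members. Those of 6 members are printed because these RNAs changed with oxamate in different ways in the parental and resistant cells, and they were chosen after their values were seen. LINC00909 (chr18:74597786-74598085, minus strand), LINC00526 (chr18:5237980-5238279, minus strand), LINC01521 (chr22:31346509-31346808, plus strand) and LINC00346 (chr13:110870259-110870558, minus strand) were lower after oxamate in parental cells. LINC00482 (chr17:81309199-81309498, minus strand) and LINC01273 (chr20:50172320-50172619, plus strand) were higher. LINC00482 was called higher in resistant cells too, and its difference between the lines was lost under several settings. Capitals mark every match, on either strand, to the cAMP response element TGACGTCA, the AP-1 site TGANTCA, the core ACGTG of the hypoxia response element and E-box, the GC box GGGCGG, the NF-Y box CCAAT and the TATA box TATAAA. Neighbouring GC boxes can overlap.
LINC00909: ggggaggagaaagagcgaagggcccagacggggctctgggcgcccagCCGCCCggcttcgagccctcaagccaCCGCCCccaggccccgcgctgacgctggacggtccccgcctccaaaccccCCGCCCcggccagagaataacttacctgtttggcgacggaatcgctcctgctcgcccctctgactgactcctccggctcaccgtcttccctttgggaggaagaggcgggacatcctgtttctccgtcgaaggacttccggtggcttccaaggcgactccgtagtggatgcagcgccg
LINC00526: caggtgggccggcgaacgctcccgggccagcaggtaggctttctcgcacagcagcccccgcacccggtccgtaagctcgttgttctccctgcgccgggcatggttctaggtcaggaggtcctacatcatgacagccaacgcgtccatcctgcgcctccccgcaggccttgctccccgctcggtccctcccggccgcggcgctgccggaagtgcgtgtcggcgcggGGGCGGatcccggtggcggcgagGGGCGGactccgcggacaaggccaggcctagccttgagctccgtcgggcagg
LINC01521: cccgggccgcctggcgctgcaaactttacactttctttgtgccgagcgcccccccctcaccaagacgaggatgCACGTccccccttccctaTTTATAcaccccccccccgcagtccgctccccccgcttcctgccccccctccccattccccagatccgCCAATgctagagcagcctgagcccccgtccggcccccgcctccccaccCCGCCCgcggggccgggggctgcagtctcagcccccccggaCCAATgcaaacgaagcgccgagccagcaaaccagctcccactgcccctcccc
LINC00346: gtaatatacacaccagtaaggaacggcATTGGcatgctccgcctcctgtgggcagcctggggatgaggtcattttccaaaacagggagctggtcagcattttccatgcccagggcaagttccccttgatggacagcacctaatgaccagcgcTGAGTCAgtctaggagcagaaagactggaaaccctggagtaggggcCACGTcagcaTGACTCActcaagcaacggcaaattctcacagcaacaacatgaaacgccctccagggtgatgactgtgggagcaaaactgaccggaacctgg
LINC00482: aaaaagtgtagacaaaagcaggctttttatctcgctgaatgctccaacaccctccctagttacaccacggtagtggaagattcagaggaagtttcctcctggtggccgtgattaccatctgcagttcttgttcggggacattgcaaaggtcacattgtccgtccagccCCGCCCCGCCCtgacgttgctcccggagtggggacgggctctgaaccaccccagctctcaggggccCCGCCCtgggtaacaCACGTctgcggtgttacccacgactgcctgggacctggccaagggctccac
LINC01273: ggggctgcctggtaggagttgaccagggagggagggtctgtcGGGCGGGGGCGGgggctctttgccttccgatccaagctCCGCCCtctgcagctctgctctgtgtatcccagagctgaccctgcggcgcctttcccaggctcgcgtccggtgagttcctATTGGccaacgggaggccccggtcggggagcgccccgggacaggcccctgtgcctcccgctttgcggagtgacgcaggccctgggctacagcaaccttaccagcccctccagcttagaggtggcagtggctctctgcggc

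The windows of LINC00909 and LINC00526 held 3 and 2 GC boxes and no match to the other motifs. The window of LINC00346 held 2 AP-1 sites, 1 ACGTG core and 1 CCAAT box, and that of LINC01521 held 1 ACGTG core, 1 GC box, 2 CCAAT boxes and 1 TATA box. LINC00482 had 3 GC boxes and 1 ACGTG core, and LINC01273 had 3 GC boxes and 1 CCAAT box. Over the 113 member windows the GC box was found in 52.2% (45.0% of all 35116 RefSeq windows), CCAAT in 38.9% (34.6%), ACGTG in 26.5% (21.4%), the AP-1 site in 11.5% (7.71%), TATAAA in 8.85% (11.5%) and TGACGTCA in 1.77% (1.85%). The median GC content was 61.0% in the member windows and 58.7% in all windows. A match is a description of the letters and not a site shown to be bound.

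Most members were rare transcripts. The mean level of a member ranged from 0.166 to 327 CPM with a median of 1.39 CPM, against 19.6 CPM over all 14582 genes tested. Only 23 members reached 8 CPM and 57 stayed under 1 CPM. LINC00657 (NORAD), a cytoplasmic RNA that binds PUMILIO proteins and guards genome stability, made up 33.4% of the summed member CPM. Per kilobase of the longest transcript the highest levels were those of LINC00657 at 61.2 CPM, LINC00674 at 58.9 CPM and LINC00998 at 30.3 CPM, followed by LINC00493 at 24.9 CPM and LINC01578 at 20.8 CPM. The median member with a known length had 0.692 CPM per kilobase.

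LINC00657 changed little between conditions. Its values were 305, 313 and 314 CPM in parental vehicle, 308, 320 and 333 CPM in parental oxamate, 340, 337 and 340 CPM in resistant vehicle, and 341, 331 and 339 CPM in resistant oxamate cells. The parental and resistant vehicle libraries did not overlap, yet the log2 difference was 0.12 ± 0.03 (SE), under the 1.5-fold limit. All 12 of its expected counts were not whole numbers, which is how RSEM leaves a gene that shares reads with other sequences. Over all members 21.3% of the values were not whole, against 11.6% over the table.

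The mean of a member was most often highest in resistant oxamate cells. This held for 77 of the 140 members tested (55.0%), against 31.2% of all genes tested and 47.7% of the 5615 genes tested whose mean lay between 0.232 and 14.2 CPM, the 10th and 90th percentile of the members. Parental oxamate was highest for 42 members, resistant vehicle for 11 and parental vehicle for 10. The genes in that level range are used below as a background of like level, because fold changes of rare transcripts pass a limit more often. Their median was 3.3 CPM, above the 1.39 CPM of the members, and 112 of the 140 members tested lay in the range. The match in level is therefore partial, and member shares are given over all 140.

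The first comparison asked how oxamate acted on sensitive cells. The test was edgeR's quasi-likelihood test. Of the 141 members 140 passed its filter on low counts, and LINC01571 did not. A gene was called where p, before adjustment, was below 0.05 and the change exceeded 1.5-fold. After oxamate in parental cells 23 members (16.4%) were higher, against 5.69% of all genes and 10.8% of genes of like level, and 7 (5.0%) were lower, against 4.19% and 7.82%. Of these, 21 and 7 also had an adjusted p under 0.05, as had 5.32% and 4.06% of all genes. The median log2 change was 0.15 over the members and 0.00 over all genes. The nuclear RNA sum was 321 to 357 CPM in the vehicle libraries and 557, 544 and 1187 CPM after oxamate. Without replicate 3 of both parental oxamate and resistant vehicle 17 members were higher (12.1%, against 4.53% of all genes). There 7 were lower (4.96%, against 4.51%), and 22 of the 30 calls were shared. With the nuclear RNA level as a covariate 14 were higher (10.0%, against 3.5% of all genes) and 10 lower (7.14%, against 5.22%). Of the 30 calls 16 were shared. That level did not overlap between the vehicle and oxamate libraries, so this fit cannot separate it from the treatment.

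LINC00482 rose in parental cells with the smallest p of the members called higher. Its values were 2.40, 2.55 and 2.35 CPM in vehicle and 5.99, 5.62 and 9.56 CPM after oxamate, with no overlap. The log2 change was 1.55 ± 0.17 (SE; edgeR adjusted p = 1.14e-06), and the highest value was in replicate 3, one of the libraries rich in nuclear RNA. LINC01273 rose from 1.82, 1.59 and 1.29 CPM to 3.15, 2.93 and 3.36 CPM (log2 change 0.99 ± 0.12, edgeR adjusted p = 4.04e-06). LINC00518, known from melanoma biopsies as a marker RNA, rose from 3.16, 3.09 and 3.23 CPM to 5.02, 4.85 and 4.67 CPM, with all oxamate libraries above all vehicle libraries. LINC00982 (PRDM16-DT), divergent to the transcription factor gene PRDM16, rose by 1.00 ± 0.17 on the log2 scale. LINC01599 rose by 0.60 ± 0.09, but it overlaps VCPKMT and 8 of its 12 values were not whole.

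Among the members that fell, LINC00909 had 0.905, 1.04 and 0.981 CPM in parental vehicle and 0.554, 0.419 and 0.391 CPM after oxamate. The groups did not overlap, and the log2 change was -1.10 ± 0.15 (edgeR adjusted p = 1.33e-05). LINC00526 fell from 1.02, 0.933 and 0.836 CPM to 0.393, 0.552 and 0.391 CPM, a log2 change of -1.09 ± 0.18. LINC00673, an RNA at a pancreatic cancer risk locus, fell from 0.877, 0.913 and 0.933 CPM to 0.608, 0.248 and 0.522 CPM. LINC01004 fell by 0.58 ± 0.11 on the log2 scale, close to the fold limit, and lost the call under several settings. LINC00242 fell from 0.182, 0.152 and 0.257 CPM to 0.0781, 0.0712 and 0.0580 CPM, levels near the 0.0435 to 0.0571 CPM that 3 counts give in these libraries.

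**Figure D1:**
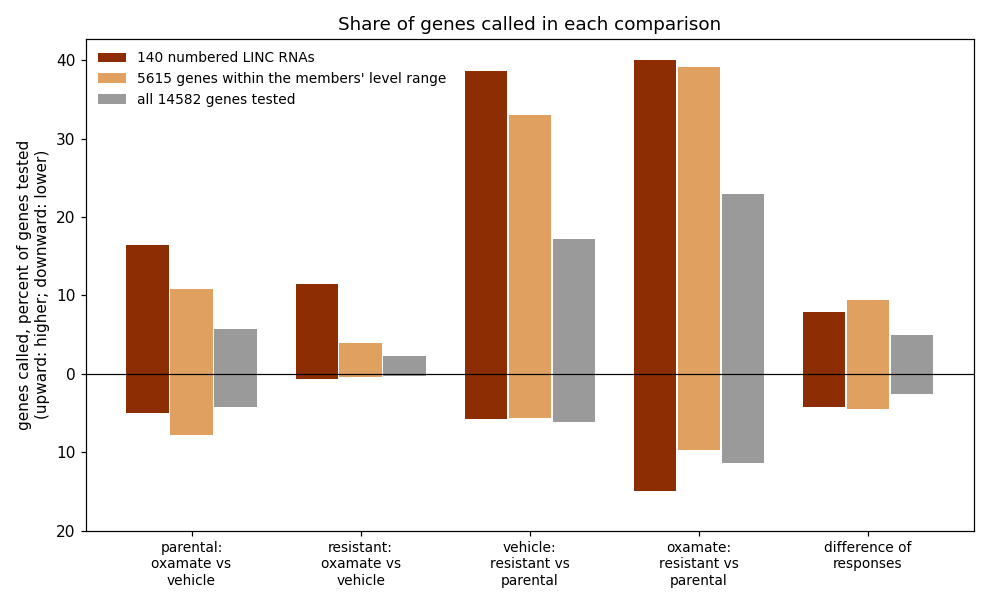
Percent of genes called higher (upward bars) and lower (downward bars) in each comparison, for the 140 numbered LINC RNAs tested, the 5615 genes of like level and all 14582 genes tested. In resistant cells after oxamate 11.4% of the members and 3.99% of genes of like level were higher, and between the lines under oxamate 40.0% and 39.1%.

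The second comparison asked the same of resistant cells. There 16 members (11.4%) were higher after oxamate, against 2.23% of all genes and 3.99% of genes of like level, and 1 (0.714%) was lower, against 0.274% and 0.41%. Only 9 of the 16 also had an adjusted p under 0.05, against 1.16% of all genes, and the lower one did not, against 0.158%. These oxamate libraries held 1080 to 1407 CPM of the nuclear RNAs, whereas the vehicle libraries held 583 and 534 CPM in replicates 1 and 2 and 1112 CPM in replicate 3. With the nuclear RNA level as a covariate 6 members were higher (4.29%, against 1.03% of all genes) and 1 lower (0.714%, against 0.37%). Of the 17 calls 4 were shared. Without replicate 3 of both parental oxamate and resistant vehicle 19 were higher (13.5%, against 3.62% of all genes) and 2 lower (1.42%, against 0.45%). Here 16 of the 17 calls were shared. Without resistant vehicle replicate 2 alone 9 were higher (6.38%, against 1.63% of all genes) and 1 lower (0.709%, against 0.27%).

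LINC00482 rose in resistant cells too, from 1.13, 1.43 and 1.51 CPM to 2.58, 1.86 and 2.48 CPM (log2 change 0.77 ± 0.22, edgeR adjusted p = 0.0219). LINC01089 rose from 0.960, 0.873 and 1.44 CPM to 1.67, 1.68 and 2.17 CPM (0.76 ± 0.18), with replicate 3 the highest in each group, and it overlaps SETD1B. LINC01132 rose from 0.244, 0.336 and 0.342 CPM to 0.593, 0.697 and 0.487 CPM. The low transcript LINC00672, now listed as coding under LASP1NB, had 0.175, 0.185 and 0.342 CPM in vehicle and 0.498, 0.426 and 1.02 CPM after oxamate. LINC00176, now C20orf204, rose from 1.19, 0.789 and 1.70 CPM to 1.95, 1.84 and 2.60 CPM. With the nuclear RNA level as a covariate the calls of LINC00482, LINC01089, LINC00672 and LINC00176 were lost. LINC01556 was the member that passed the unadjusted threshold downward, with 0.209, 0.202 and 0.257 CPM in vehicle and 0.0766, 0.116 and 0.134 CPM after oxamate (edgeR adjusted p = 0.0826).

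Called upward in both lines were 6 members, which is 6 of the 23 called higher in parental cells and 6 of the 16 called higher in resistant cells: LINC00482, LINC00173, LINC00342, LINC00685, LINC00894 and LINC01573. That is 4.29% of the members tested, against 0.837% of all genes. The joint share was not counted among genes of like level, of which 10.8% and 3.99% were higher in parental and resistant cells. The parental and resistant comparisons share no libraries. With the nuclear RNA level as a covariate LINC00482 and LINC00894 kept the call in parental cells and none of the 6 kept it in resistant cells. No member was called downward in both.

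**Figure D2:**
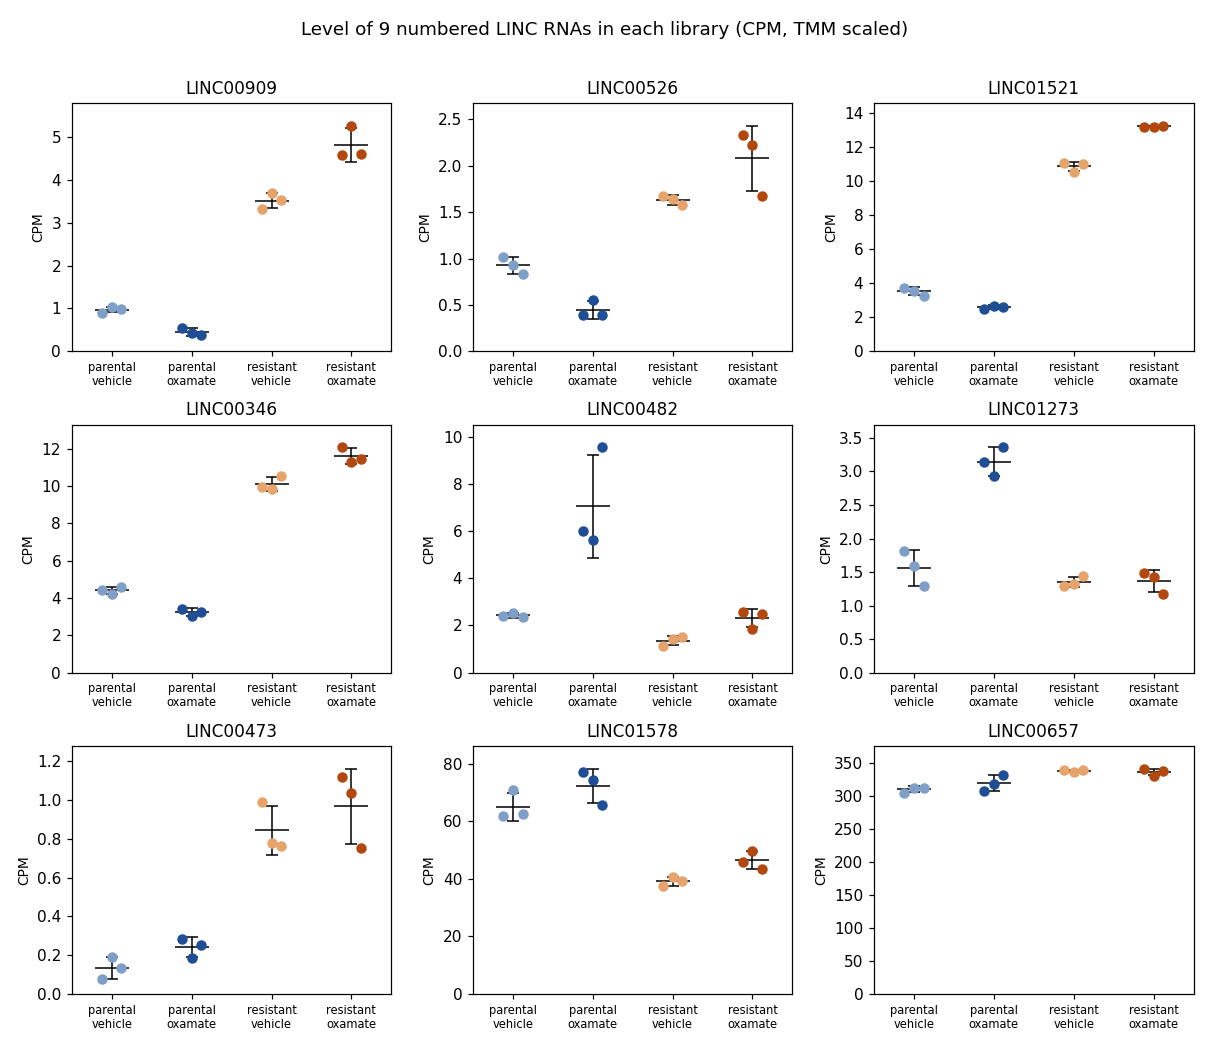
Level in CPM (TMM-scaled) of 9 members in each of the 12 libraries, with points for libraries, a horizontal mark for the group mean and bars for the SD (n = 3). LINC00909, LINC00526, LINC01521 and LINC00346 are lower under oxamate than under vehicle in parental cells and are highest in resistant oxamate cells, whereas LINC00657 stays between 305 and 341 CPM.

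The third comparison set resistant against parental cells without the drug. In resistant cells 54 members (38.6%) were higher, against 17.2% of all genes and 33.0% of genes of like level, and 8 (5.71%) were lower, against 6.14% and 5.63%. With an adjusted p under 0.05 the counts were 53 and 8, against 17.0% and 6.09% of all genes. The nuclear RNA sum was 321 to 357 CPM in the parental and 534 to 1112 CPM in the resistant libraries of this comparison. With that level as a covariate 38 members were higher (27.1%, against 13.6% of all genes) and 9 lower (6.43%, against 5.95%). That level did not overlap between these groups, so the fit cannot separate it from the difference between the lines. Without the libraries rich in nuclear RNA 44 were higher (31.2%, against 16.1% of all genes) and 8 lower (5.67%, against 6.05%). A share of 38.6% lay close to the 33.0% of genes of like level.

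LINC01521 was called higher with the smallest p. It had 3.74, 3.57 and 3.28 CPM in parental and 11.1, 10.6 and 11.0 CPM in resistant vehicle cells, a log2 difference of 1.61 ± 0.06 (edgeR adjusted p = 8.38e-13). LINC00346, a p53-regulated transcript that was reported to activate STAT3 signalling, had 4.44, 4.22 and 4.57 CPM and 9.95, 9.83 and 10.5 CPM (1.20 ± 0.06). LINC00909 had 0.905, 1.04 and 0.981 CPM in parental and 3.33, 3.70 and 3.53 CPM in resistant cells (1.85 ± 0.11). None of these groups overlapped.

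LINC00886 and LINC00094 followed. LINC00886 had 0.405, 0.355 and 0.386 CPM in parental and 1.54, 1.41 and 1.40 CPM in resistant cells. LINC00094 (BRD3OS) had 19.8, 20.7 and 20.4 CPM and 33.9, 36.1 and 31.7 CPM, but it overlaps BRD3 and none of its values was whole. BRD3 itself differed by 0.00 ± 0.03 on the log2 scale.

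LINC00115, LINC01011, LINC00704, LINC01351 and LINC01578 were lower in resistant cells. LINC01011 had 14, 13.4 and 14.4 CPM in parental and 6.81, 6.85 and 7.34 CPM in resistant vehicle cells (-0.99 ± 0.06). LINC00115 had 6.17, 5.60 and 6.32 CPM and 2.41, 2.37 and 2.52 CPM, although all of its values were fractional. LINC00704 (MANCR), an RNA described in mitotic cells, had 3.72, 3.83 and 3.83 CPM and 1.83, 1.85 and 2.05 CPM. LINC01351, divergent to BRINP3, differed by -0.94 ± 0.13.

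LINC01578 (CHASERR), transcribed next to CHD2 and known to restrain that chromatin remodeller in cis, had 61.8, 70.7 and 62.4 CPM in parental and 37.6, 40.6 and 39.3 CPM in resistant vehicle cells. Its log2 difference was -0.73 ± 0.06 (edgeR adjusted p = 3.78e-08). The nearby CHD2, 1577 bases away, moved the other way by 0.29 ± 0.05, from 93.7 ± 1.24 to 114 ± 3.95 CPM (mean ± SD, n = 3), which is under 1.5-fold. Without TMM scaling LINC01578 stayed lower but no longer passed the fold limit.

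The fourth comparison set resistant against parental cells under oxamate. In resistant cells 56 members (40.0%) were higher, against 22.9% of all genes and 39.1% of genes of like level, and 21 (15%) were lower, against 11.4% and 9.67%. With an adjusted p under 0.05 the counts were 55 and 20, against 22.7% and 11.4% of all genes. With library size alone 68 were higher (48.6%, against 35.8% of all genes) and 10 lower (7.14%, against 3.81%). That scaling moved the median log2 difference of all genes from 0.02 to 0.34. Upper-quartile scaling gave 60 higher (42.9%, against 25.8% of all genes) and 14 lower (10.0%, against 8.15%). Without replicate 3 of both parental oxamate and resistant vehicle the counts were 60 and 20 (42.6% and 14.2%, against 24.0% and 11.7% of all genes). The nuclear RNA sum of the libraries left in this comparison was 557 and 544 CPM in parental and 1080 to 1407 CPM in resistant cells. With the nuclear RNA level as a covariate 52 members were higher (37.1%, against 21.0%) and 21 lower (15.0%, against 10.7%).

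LINC01521 had 2.49, 2.68 and 2.62 CPM in parental and 13.2, 13.2 and 13.3 CPM in resistant oxamate cells (log2 difference 2.35 ± 0.06, edgeR adjusted p = 1.31e-14). LINC00909 had 0.554, 0.419 and 0.391 CPM and 4.57, 5.27 and 4.62 CPM (3.41 ± 0.13). LINC00525 had 1.13, 0.914 and 1.01 CPM and 5.21, 4.84 and 5.24 CPM. Among those lower, LINC01420, LINC00998 and LINC01123 joined LINC01011 and LINC00115. LINC01123 had 16.9, 17 and 18.7 CPM in parental and 10.6, 10.5 and 12.1 CPM in resistant oxamate cells.

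Between the lines 52 members were called the same way under vehicle and under oxamate, 45 higher and 7 lower, which is 52 of 62 and 52 of 77 calls. The 45 were 32.1% of the members tested, against 14.2% of all genes. The 7 were 5.0%, against 4.99% of all genes. These joint shares were not counted among genes of like level. In the single comparisons 33.0% and 39.1% of genes of like level were higher, against 38.6% and 40.0% of the members. No member was called in opposite directions. Those comparisons share no libraries. LINC00461, host of the brain microRNA miR-9-2 and named here after its values were seen, was at 0 in all 3 parental oxamate libraries and had 0.593, 0.581 and 0.487 CPM in resistant oxamate cells. Set against 3 counts per parental library (0.0514 CPM), it was at least 10.8-fold higher. It passed the level of 10 counts through the resistant libraries, so that its difference is no independent result.

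**Figure D3:**
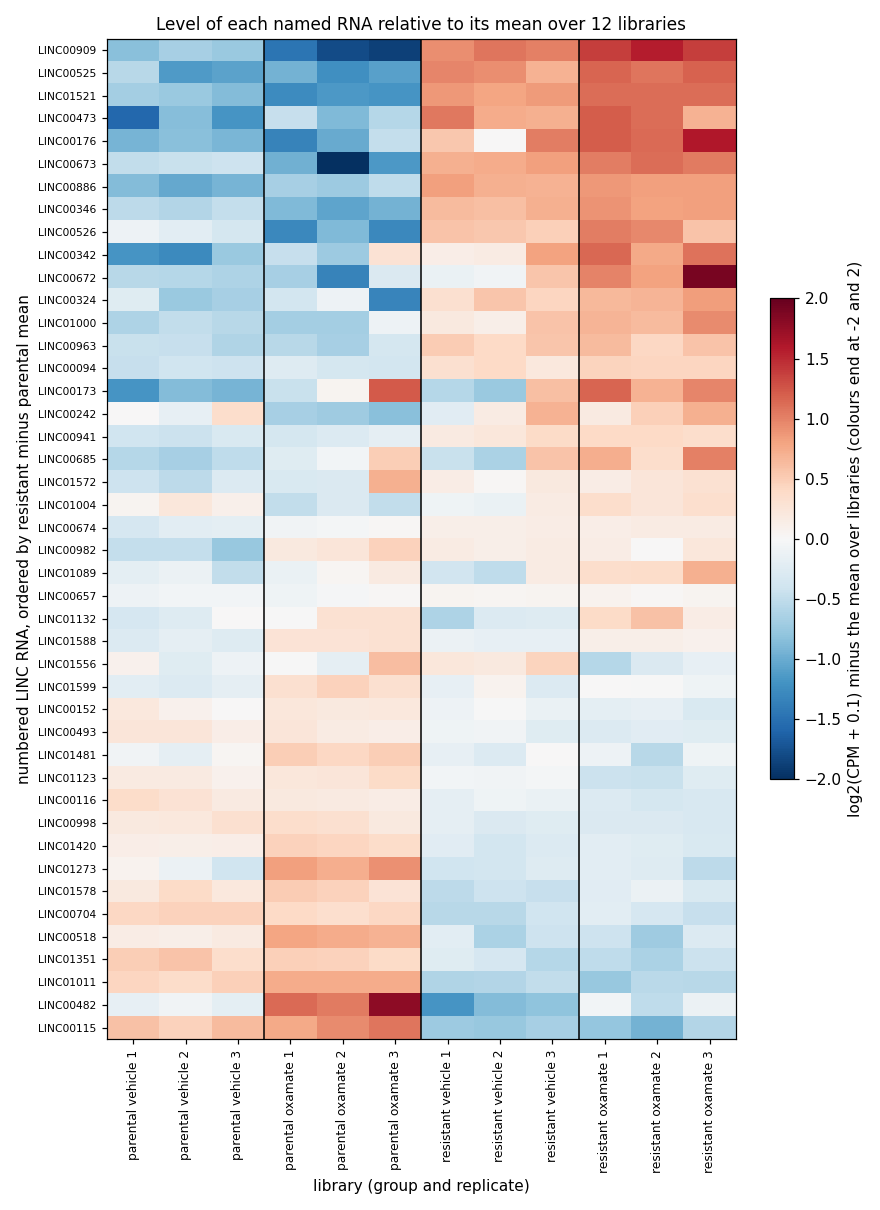
Level of each of 44 named members in each library as log2(CPM + 0.1) minus its mean over the 12 libraries, red above and blue below, with rows ordered by the resistant minus the parental mean. LINC00909 at the top has the lowest values in parental oxamate libraries, LINC00115 at the bottom is low in all 6 resistant libraries, and LINC00173 and LINC00685 are higher in replicate 3 than in the other replicates of parental oxamate and resistant vehicle.

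The difference of the oxamate responses asked whether the lines responded unlike each other. Where the adjusted p was below 0.05 and the gap exceeded 1.5-fold it was called, which held for 17 members, of which 11 (7.86%) were higher, against 4.99% of all genes and 9.47% of genes of like level, and 6 (4.29%) were lower, against 2.53% and 4.51%. These shares were near those of genes of like level. All 11 with a higher difference had a negative value in parental cells and a positive one in resistant cells.

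For 4 of them, LINC00909, LINC01521, LINC00346 and LINC01004, both responses had an adjusted p under 0.05 and opposite signs. LINC00909 changed by -1.10 ± 0.15 in parental and by 0.45 ± 0.10 in resistant cells, a difference of 1.55 ± 0.18 (edgeR adjusted p = 4.69e-06). LINC01521 changed by -0.45 ± 0.07 and 0.28 ± 0.05, and LINC00346 by -0.43 ± 0.07 and 0.20 ± 0.06. LINC01004 changed by -0.58 ± 0.11 and 0.33 ± 0.11. The resistant responses stayed under 1.5-fold in all 4.

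Of the 6 members with a lower difference, LINC00482 was called higher in both lines, and LINC01273, LINC00518, LINC00982 and LINC01481 in parental cells alone. LINC01556 was not called in parental cells, with a log2 change of 0.46 ± 0.34, and was called lower in resistant cells. LINC01273 had 1.29, 1.33 and 1.44 CPM in resistant vehicle and 1.49, 1.43 and 1.18 CPM in resistant oxamate cells, which overlap, and its difference was -0.98 ± 0.19. LINC00518 differed by -0.65 ± 0.16, LINC00982 by -1.02 ± 0.24 and LINC01481 by -0.73 ± 0.25. LINC01481 overlaps CNOT2 and none of its values was whole. With library size alone the difference was no longer called for LINC00518, LINC01481 and LINC00482. That of LINC00482 was also lost with the nuclear RNA covariate, with limma-voom and without the libraries rich in nuclear RNA. That of LINC01556 was lost with the covariate, without those libraries and with DESeq2. For LINC01481 the call was lost without those libraries and with DESeq2.

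**Figure D4:**
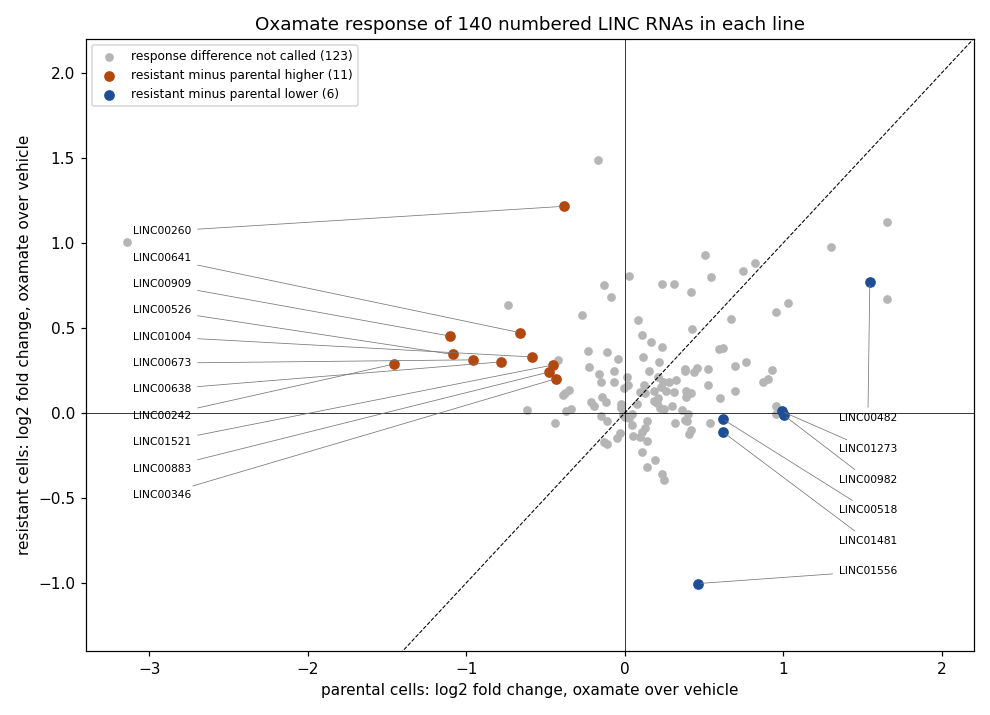
Log2 fold change of oxamate over vehicle in parental cells (x axis) and in resistant cells (y axis) for the 140 members tested, with the 11 called for a higher difference in orange and the 6 called for a lower one in blue. The 11 lie left of 0 on the parental axis and above 0 on the resistant axis, the dashed line marks equal responses, and the point at the far left is LINC00461, whose fitted value rests on parental oxamate libraries that are all at 0.

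The nearest protein-coding gene that was tested lay at a median of 15459.5 bases, and 49 members had one within 5000 bases. Of the 54 members higher in resistant vehicle cells 9 (16.7%) had a neighbour called the same way, near the 17.2% of all genes, and 5 had one called the other way. For the 56 under oxamate it was 16 (28.6%), against 22.9%, and 4 the other way. Of the 21 members lower under oxamate 2 (9.52%, against 11.4% of all genes) had a neighbour that was lower and 7 one that was higher. In parental cells after oxamate it was 2 of the 23 that were higher (8.7%, against 5.69% of all genes) and 2 of the 7 that were lower (28.6%, against 4.19%), with none called the other way.

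Those last 2 pairs were LINC00526 with ZBTB14, a zinc finger transcription factor gene 50993 bases away, and LINC01004 with KMT2E, a chromatin regulator gene 23040 bases away. ZBTB14 went from 6.64 ± 0.19 to 3.10 ± 0.35 CPM (mean ± SD, n = 3) in parental cells after oxamate and had 10.8 ± 0.20 and 10.8 ± 0.49 CPM in resistant cells. KMT2E went from 55.4 ± 2.22 to 32.2 ± 2.23 CPM and from 78.5 ± 1.57 to 84.7 ± 0.35 CPM. Both neighbours were also called for a higher difference of responses, at 1.09 ± 0.10 and 0.89 ± 0.06 on the log2 scale. ZNF407, whose span begins 35 bases from that of LINC00909, changed by -0.35 ± 0.06 in parental cells and was not called.

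Members with a single exon were called higher in resistant vehicle cells in 13 of 24 cases and lower in 1, and those with more exons in 34 of 105 and 7, beside 17.2% and 6.14% of all genes and 33.0% and 5.63% of genes of like level. Under oxamate the counts were 13 and 1 of 24, and 35 and 20 of 105, beside 22.9% and 11.4% of all genes and 39.1% and 9.67% of genes of like level. Of the 11 members that RefSeq now lists as coding, 3 were higher and none lower under vehicle, and 3 were higher and 3 lower under oxamate.

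A separate group is formed by loci that were first listed as noncoding and later annotated with a small protein. Of 10 listed, 5 were members, and 4 of these had lower values in every resistant than in every parental vehicle library, as had 27 of the 140 members tested and 38.0% of all genes. LINC01420 (NBDY), which encodes a protein of P-bodies, had 17.9, 17.7 and 17.9 CPM in parental vehicle and 13.9, 12.7 and 13.5 CPM in resistant vehicle cells. After oxamate it had 22.6, 22.2 and 21.2 CPM in parental and 14.1, 13.8 and 13.3 CPM in resistant cells, where it was called lower. LINC00998 (SMIM30) was called lower under oxamate at -0.59 ± 0.04, close to the fold limit. LINC00116 (MTLN), which encodes mitoregulin of the mitochondrial inner membrane, differed by -0.43 ± 0.05 under vehicle, and LINC00493 (SMIM26) by -0.34 ± 0.05. Neither passed 1.5-fold.

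Of 18 RNAs on a list of long noncoding RNAs studied in cancer cells 11 were members. In resistant vehicle cells 8 of the 11 were called higher, against 17.2% of all genes and 33.0% of genes of like level, and 1, LINC01578, lower, against 6.14% and 5.63%. With the nuclear RNA level as a covariate LINC00941 was no longer called. LINC00473, a transcript induced by cAMP signalling, had 0.0781, 0.191 and 0.133 CPM in parental and 0.991, 0.778 and 0.764 CPM in resistant vehicle cells (2.67 ± 0.28, edgeR adjusted p = 3.48e-07). It lies within PDE10A and none of its values was whole, and PDE10A was higher by 0.42 ± 0.04. LINC00673 had 0.877, 0.913 and 0.933 CPM and 2.16, 2.22 and 2.35 CPM.

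LINC00963 had 2.19, 2.17 and 1.96 CPM in parental and 4.35, 4.03 and 4.50 CPM in resistant vehicle cells. LINC00941 was higher by 0.66 ± 0.07 and LINC00324 by 1.09 ± 0.25. LINC00342 was higher by 1.68 ± 0.28 with 6 of 12 values not whole, and LINC00176 by 1.69 ± 0.27. LINC00152 (CYTOR), which has a near-identical copy elsewhere in the genome, had 30.2, 27.7 and 26.1 CPM in parental and 24.1, 25.8 and 23.6 CPM in resistant vehicle cells, a difference of -0.20 ± 0.05 under the fold limit.

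The other members of high level moved less than 1.5-fold after the drug. LINC01588 had 19.4, 20.8 and 19.6 CPM in parental vehicle and 28.6, 28.4 and 29 CPM in parental oxamate cells (0.52 ± 0.03, edgeR adjusted p = 5.11e-09). LINC00674 had 31.4 to 34.6 CPM in parental vehicle and 43.2, 43.0 and 43.8 CPM in resistant vehicle cells. LINC01000 had 14.6, 15.9 and 15.3 CPM in parental vehicle, 14, 14 and 20.9 CPM in parental oxamate, 25.9, 24.4 and 33.6 CPM in resistant vehicle and 36.2, 35.2 and 43.5 CPM in resistant oxamate cells, with replicate 3 highest in the last 3 groups.

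The members were also compared between libraries of the same group. In parental oxamate replicate 3, 47.9% of the members had their highest value of the 3 replicates, against 35.5% of all genes and 42.9% of genes of like level. In resistant vehicle replicate 3 it was 46.4%, against 33.1% and 41.7%. Highest in both were 40 members (28.6%), against 17.9% of all genes, and this was not counted among genes of like level. The median log2 ratio of a member to the mean of the other replicates was small, 0.05 and 0.04.

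Among members with a mean of at least 0.5 CPM, LINC00173 had the largest ratio in both libraries. It had 0.805, 1.18 and 2.80 CPM in parental oxamate and 0.733, 0.638 and 1.78 CPM in resistant vehicle cells, so replicate 3 was above the mean of the others by 1.41 and 1.26 on the log2 scale. Its parental vehicle values were 0.443, 0.578 and 0.547 CPM and its resistant oxamate values 2.66, 1.90 and 2.32 CPM. LINC00685 had 1.29, 1.13 and 2.72 CPM in resistant vehicle cells and 3.04, 2.32 and 3.74 CPM in resistant oxamate cells.

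LINC01572 had 0.393, 0.400 and 0.898 CPM in parental oxamate cells, and without replicate 3 its rise in parental cells was no longer called. The same held for LINC00342 and LINC00685 in parental cells. LINC00342 had 0.680, 0.552 and 1.22 CPM after oxamate there. With the nuclear RNA level as a covariate the parental changes of LINC00173, LINC00342, LINC00685 and LINC01572 were no longer called. The nuclear RNA sum was 321 to 357 CPM in parental vehicle and 544 to 1187 CPM in parental oxamate libraries, with no overlap. That fit therefore cannot separate nuclear RNA from the oxamate treatment, and the part of the nuclear RNA in these changes was not tested.

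**Figure D5:**
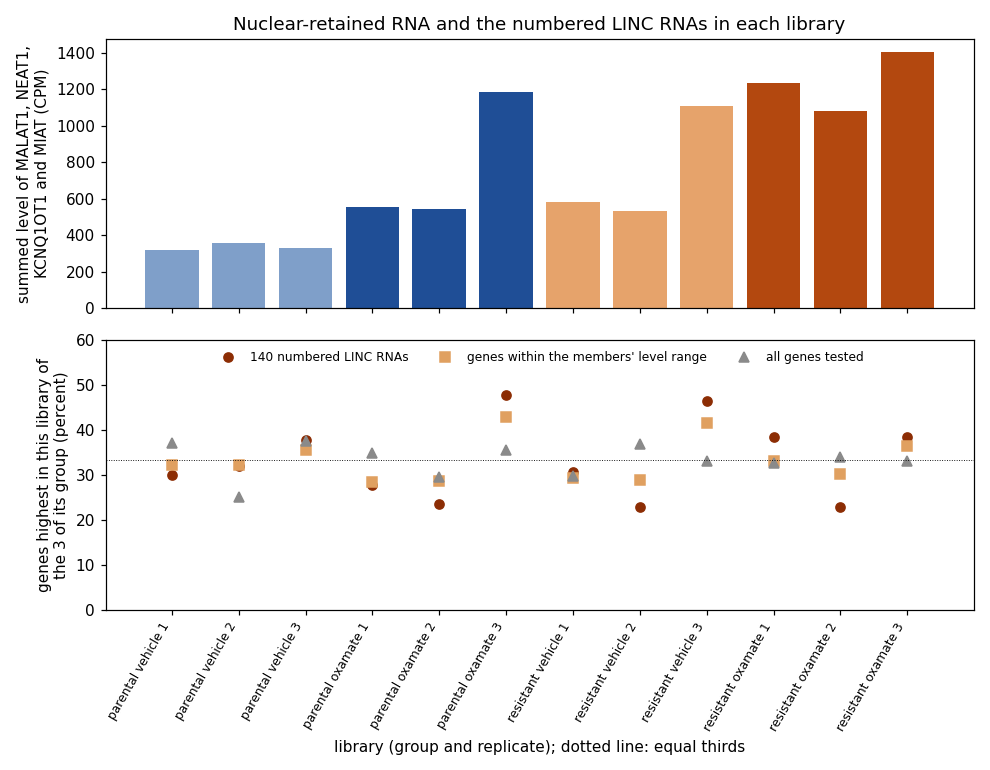
Top, summed level in CPM of MALAT1, NEAT1, KCNQ1OT1 and MIAT in each library. Bottom, percent of the 140 members, of genes of like level and of all genes tested that were highest in that library among the 3 of its group. Replicate 3 of parental oxamate (1187 CPM) and of resistant vehicle (1112 CPM) hold the most nuclear RNA of their groups and the highest shares of members, 47.9% and 46.4%.

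Among 375 antisense RNAs, another class of noncoding gene, 123 (32.8%) were higher and 22 lower in resistant vehicle cells, and after oxamate in resistant cells 33 (8.8%) were higher and 2 lower. Among 335 uncharacterised LOC genes 103 (30.7%) and 30 (8.96%) were higher in these comparisons, and 20 and 1 were lower. After oxamate in parental cells 48 antisense RNAs (12.8%) and 65 LOC genes (19.4%) were higher. Among the members it was 16.4% and among all genes 5.69%. Lower there were 15 antisense RNAs (4.0%) and 13 LOC genes (3.88%), against 5.0% of the members and 4.19% of all genes. Of 12 microRNA host genes 5 were higher in resistant vehicle cells, 3 were higher after oxamate in parental cells and none was called after oxamate in resistant cells. The 18 small nucleolar RNA host genes, of higher level with a median of 11.3 CPM, had 1 gene higher between the lines under vehicle and none called after oxamate in either line. No test of the lists against each other was made.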

How the data were processed

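Poly(A) RNA of MIAPaCa2 cells was sequenced in 12 libraries. Per the labels, the authors quantified reads with RSEM 1.2.15 and Bowtie2 2.1.0 on hg38 and deposited expected counts per gene in 1 table of all 12 libraries. The study's methods also name STAR and featureCounts. They were rounded before testing. Depth was 46698729 to 114222169 counts per library, and 3 counts corresponded to 0.0283 to 0.0581 CPM, which covers counting error only.

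Genes passing filterByExpr (14582) were tested with edgeR 4.0.16 (glmQLFit and glmQLFTest, TMM, means of 4 groups, all 12 libraries) in R 4.3.3, with Benjamini-Hochberg adjustment over all of them. A call needed an unadjusted p under 0.05 and a fold over 1.5, and the difference of responses an adjusted p under 0.05 and over 1.5-fold. CPM values are TMM-scaled, and 0.1 CPM was added before logs for the library comparison and the heat map. Alternatives were other scalings, filters on low counts (none, or a mean of at least 25), DESeq2 1.42.0, limma 3.58.1 (voom), a replicate block, a nuclear RNA covariate, fits on 6 libraries, and fits without single libraries.

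The members, lists and role lists were chosen with earlier results of these data known. Named members were up to 5 called per direction and comparison with the smallest p and no overlap between groups (no overlap condition for the difference of responses), the 8 of highest mean CPM, those on the role lists, the 3 of largest excess in each of the libraries rich in nuclear RNA and 4 at the limit of 10 counts. No pair of replicates was a duplicate. Positions and promoters are from RefSeq (GRCh38.p14), transcripts from GENCODE 29, and the coordinates of the count table were not used.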

Additional observations from a re-analysis of the deposited data

Results flagged for a closer look

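The oxamate response differed between resistant and parental cells for 17 members by a test of the difference itself (edgeR's quasi-likelihood test, adjusted p under 0.05 and over 1.5-fold, n = 3 libraries per group). A higher difference was called for 7.86% of the members, against 4.99% of all genes and 9.47% of genes of like level. A lower one was called for 4.29%, against 2.53% and 4.51%, so the shares were near those of genes of like level. On the log2 scale, resistant minus parental, the difference was 1.55 for LINC00909, 0.73 for LINC01521, 0.63 for LINC00346, 1.43 for LINC00526, 0.91 for LINC01004, 1.27 for LINC00673, 1.08 for LINC00638, 1.13 for LINC00641, 1.74 for LINC00242, 0.72 for LINC00883 and 1.60 for LINC00260. It was -0.98 for LINC01273, -1.02 for LINC00982, -0.65 for LINC00518, -0.73 for LINC01481, -1.47 for LINC01556 and -0.78 for LINC00482. LINC00638, LINC00641, LINC00883 and LINC00260 were not described above. LINC00883 had 0.443, 0.517 and 0.482 CPM in parental vehicle, 0.304, 0.438 and 0.304 CPM in parental oxamate, 1.43, 1.75 and 1.93 CPM in resistant vehicle and 2.03, 2.09 and 1.93 CPM in resistant oxamate cells. Of those described above, LINC00242, LINC00482, LINC00518, LINC01481 and LINC01556 lost the call without at least 1 single library. With DESeq2 the calls of LINC00242, LINC01481 and LINC01556 were lost, and with limma-voom that of LINC00482. LINC00260 had the largest adjusted p (edgeR, 0.0496), with all its levels under 0.53 CPM.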

How the results depend on the processing

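Between the lines, and for parental cells after oxamate, the total member counts, higher plus lower, stayed within 1.5 times of those reported under every alternative. By direction, the 23 higher in parental cells after oxamate became 14 with the nuclear RNA covariate, and the 21 lower between the lines under oxamate became 10 with library size alone. For resistant cells after oxamate the 17 calls became 9 with an adjusted p under 0.05. They became 10 with a mean count of at least 25, where 112 members were tested. The nuclear RNA covariate gave 7 and DESeq2 gave 11. Higher in these fits were 6.43%, 8.93%, 4.29% and 7.8% of the members tested, against 1.16%, 1.37%, 1.03% and 0.861% of all genes. Lower were 0%, 0%, 0.714% and 0%, against 0.158%, 0.195%, 0.37% and 0.117%. Leaving out single libraries gave 10 to 19 calls for resistant cells after oxamate, 10 without resistant vehicle replicate 2. It gave 22 to 30 calls for parental cells after oxamate, 51 to 62 between the lines under vehicle, 72 to 80 under oxamate and 13 to 21 for the difference of responses. In that order 6.38% to 12.8%, 11.3% to 17.1%, 30.5% to 36.9%, 37.6% to 42.6% and 6.38% to 11.3% of the members were higher. Of all genes it was 1.63% to 3.47%, 4.4% to 6.15%, 16.0% to 17.5%, 22.1% to 24.0% and 4.6% to 5.42%. Lower were 0% to 1.42%, 3.55% to 4.96%, 5.67% to 7.09%, 13.5% to 14.9% and 1.42% to 5.67% of the members. Of all genes these were 0.27% to 0.378%, 4.02% to 4.48%, 5.88% to 6.29%, 11.0% to 11.7% and 2.26% to 2.69%. For the difference of responses, in place of 11 and 6, library size alone gave 16 higher and 3 lower (11.4% and 2.14%, against 7.58% and 1.41% of all genes). Leaving out the libraries rich in nuclear RNA gave 20 and 5 (14.2% and 3.55%, against 6.43% and 2.23%). Leaving out resistant oxamate replicate 2 gave 11 and 2 (7.8% and 1.42%, against 4.83% and 2.27%). Deviations of same-numbered libraries from their group means had r from -0.08 to 0.22, over 0.1 in 3 of 18 pairs. The highest was between replicate 3 of parental oxamate and of resistant vehicle. Libraries of different numbers were not compared in this way, so a shared culture or batch was not tested. The main fit did not pair the numbers. A replicate block gave 29, 19, 63, 77 and 20 calls in place of 30, 17, 62, 77 and 17 and lost no call of a named member. Of 95 called values of named members 58 kept direction and call under every alternative and 37 lost the call under at least 1, 23 of them with the nuclear RNA covariate. With that covariate 5 changed sign: LINC00672 (-0.33) and LINC00173 (-0.54) between the lines under vehicle, LINC01572 in parental cells after oxamate (-0.061) and between the lines under vehicle (-0.031), and LINC00685 in parental cells after oxamate (-0.30). The cause was not tested. The median excess of parental oxamate replicate 3 was 0.08 with library size alone and 0.04 with 0.5 CPM added, and that of resistant vehicle replicate 3 was 0.06 and 0.03. Members under 1 CPM rest on few counts, which limits small fold changes.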
